A study of Mus musculus with 12 samples.

Results

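CDR3s with an internal cysteine were collected from the T cell receptor alpha (TRAC) and beta (TRBC) chains of CD8+ T cells from tumor-bearing mice. A clonotype, that is, a distinct combination of V segment, J segment and CDR3 nucleotide sequence in a library, was a member when its CDR3 amino acid sequence held a cysteine at residue 4 or later, not counting the last residue. The rule found 3258 members among 1478468 clonotypes of both chains: 1215 of 509702 TRAC clonotypes (0.238%) and 2043 of 968766 TRBC clonotypes (0.211%). The members carried 2033 TRAC UMIs (0.177% of the chain) and 3066 TRBC UMIs (0.171%). A UMI (unique molecular identifier) is a random tag put on each cDNA molecule before amplification, so that a count of UMIs stands for molecules rather than reads.

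The 12 libraries came from wild-type C57BL/6J mice that carried HNSCC/Q1-2 tumors, grown from the mouse oral cancer line MTCQ1-2. Mice were given a control IgG, IL-10-Fc (an IL-10 fused to an antibody Fc), αCSF1R (an antibody against the macrophage growth factor receptor CSF1R) or BF10 (the αCSF1R antibody fused to IL-10), labelled as 30 mg/kg in 3 doses at an interval of 3 days in every group. For tumor growth experiments in this model the study gives doses that differ between the agents, so the single dose of the labels may not be the amount of each protein. CD8+ T cells were isolated with magnetic microbeads from the tumor, the spleen and the tumor-draining lymph node (tdLN), and RNA of 3 mice was pooled into 1 library for each of the 4 treatments and 3 tissues. With 1 library per treatment and tissue, treatments had no replicates within a tissue, so their values are set side by side without a test. The sample titles name CD8 for the tumor and spleen libraries but not for the tdLN libraries, while the study describes CD8+ cells from all 3 tissues. The files hold receptor sequences alone, so the CD8 label could not be checked against other genes, and whether the 3 tissues came from the same mice was not stated. Libraries held 23650 to 137078 TRAC UMIs and 32784 to 210616 TRBC UMIs, and a member with no UMI could hold up to 0.00219% to 0.0127% of a TRAC library or 0.00142% to 0.00915% of a TRBC library (3 UMIs of the total). The αCSF1R tumor library was the smallest in both chains and the control IgG tumor library was dominated by a few large clones. Both stand apart in what follows, and values without them are given beside the shares by tissue and the clone sizes.

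The CDR3 is the loop of each receptor chain that lies over the peptide held by an MHC molecule. It begins with a cysteine encoded near the end of the V segment, which pairs with another cysteine inside the V domain, and it ends with a phenylalanine or tryptophan encoded by the J segment. Between them, nucleotides are trimmed and added at random where V, D and J are joined, so a further cysteine can arise there although J segments do not encode one in this stretch. Such a free cysteine is uncommon in mature T cells of the conventional kind, and in mice a cysteine near the middle of the CDR3 is known from developing thymocytes and from intraepithelial T cells of the gut.

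The members below show what the rule selects. They are the TRAC CDR3s listed in the most libraries, the TRBC CDR3 listed in the most libraries, and 2 members of the tumor libraries with many UMIs. Letters run 5′ to 3′ and the capitals mark the codon of the internal cysteine.
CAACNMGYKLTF: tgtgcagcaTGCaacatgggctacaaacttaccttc
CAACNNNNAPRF: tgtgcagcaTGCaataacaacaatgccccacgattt
Traj30 member of 6 libraries: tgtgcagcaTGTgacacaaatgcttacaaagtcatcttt
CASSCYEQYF: tgtgcaagcagtTGTtatgaacagtacttc
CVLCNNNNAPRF: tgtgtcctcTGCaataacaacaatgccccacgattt
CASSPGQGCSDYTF: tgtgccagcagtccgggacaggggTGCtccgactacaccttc
In each the capitals stand between the part read from a V segment and the part read from a J segment. In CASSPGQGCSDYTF, bases that match a D segment lie between the V part and the codon. In the Traj9 and Traj43 members 2 of the 3 bases of the codon belong to the germline J. The first 2 sequences differ after the cysteine codon because they use Traj9 and Traj43, and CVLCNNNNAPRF shares the Traj43 end with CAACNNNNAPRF.

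Members were divided by where the cysteine stood. A residue was called fixed by V or by J when at least 80% of the clonotypes with that segment (at least 50 clonotypes) had the same amino acid there, and a junction residue otherwise. CDR3s over 25 residues were kept apart. In TRAC, 897 members (73.8%) had the cysteine at a junction residue, 276 (22.7%) at a residue fixed by J, 19 (1.56%) at one fixed by V, and 23 (1.89%) were long. In TRBC, 1038 (50.8%) were at a junction residue, 452 (22.1%) at a J residue, 304 (14.9%) at a V residue, and 249 (12.2%) were long. The TRAC members were thus mostly junctional, whereas in TRBC about as many members had the cysteine elsewhere as at the junction.

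Nearly all members of up to 25 residues held 1 internal cysteine, 1182 of 1192 in TRAC and 1784 of 1794 in TRBC. Their median length was 13 residues in TRAC against 14 in the other clonotypes, and 14 against 14 in TRBC. In TRAC, 633 members had the cysteine at residue 4 and 231 at residue 5, and the number fell to 28 at residue 10. In TRBC, 323 members had it at residue 4, just inside the rule, but only 18 of these were at a junction residue. From residue 5 to residue 10, the TRBC counts stayed between 154 and 199 a position, and 134 to 194 of each were junctional. Counted from the other end, 366 TRBC members had the cysteine at the residue before the last, and 21 TRAC members did. Just outside the rule, a cysteine at residue 3 was found in 314 TRAC and 58978 TRBC clonotypes. Of the latter, 58578 used Trbv1, whose germline sequence gives a cysteine there.

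**Figure D1:**
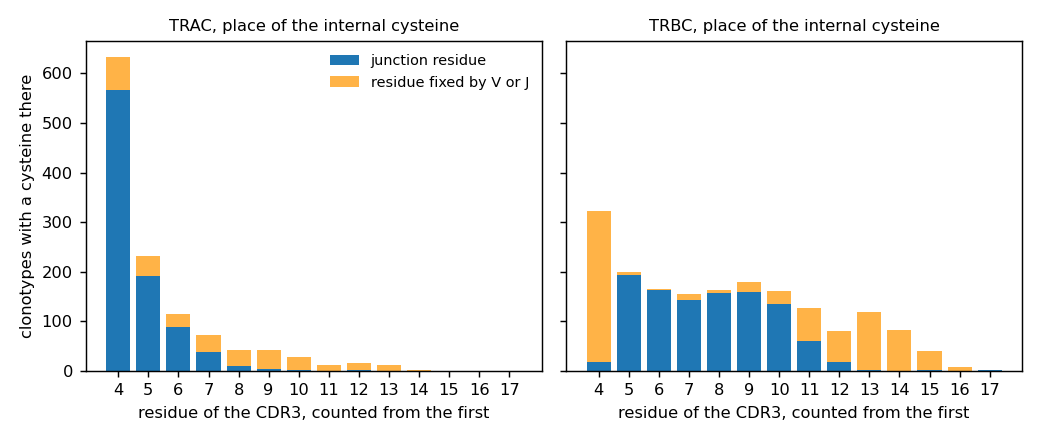
Clonotypes with a cysteine at each residue (y axis) by residue of the CDR3 counted from the first (x axis), for TRAC and TRBC CDR3s of up to 25 residues in all 12 libraries together, split into junction residues and residues fixed by V or J. TRAC peaks at residue 4 with 633 clonotypes, mostly junctional, while junction cysteines of TRBC spread over residues 5 to 10.

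Cysteine was the rarest of the 20 amino acids inside both chains, counted in the same way for each. It was found in 0.234% of TRAC clonotypes of up to 25 residues, where histidine, the next rarest, was found in 5.16%. In TRBC it was found in 0.185%, and methionine followed with 1.60%. Over junction residues alone, cysteine made up 0.0669% of TRAC residues and 0.0224% of TRBC residues, and the next rarest were tryptophan with 0.556% in TRAC and methionine with 0.312% in TRBC.

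The junction cysteines of TRAC used the codon TGC in 448 cases (49.7%) and TGT in 454. In TRBC, TGC made up 397 cases (37.9%) and TGT 650 (62.1%). In TRAC the residue before the cysteine was most often alanine (22.7%), valine (15.2%) or leucine (14.2%), and the residue after it asparagine (19.2%), serine (12.2%) or aspartate (9.65%). In TRBC it followed glycine (33.3%), serine (20.3%) or aspartate (9.55%), and alanine (15.95%), glutamate (15.8%) or glutamine (9.46%) came after it. Over all TRBC junction residues, glycine made up 23.6%, serine 8.35% and aspartate 7.81%. Residues at the same places of other clonotypes were not counted, so these shares are not shown to be particular to the members. Glycine is the residue that the D segments of the beta chain mostly encode, and both D segments are shown for that reason (GENCODE annotation of GRCm38, plus strand).
Trbd1, chr6:41533201-41533212: gggacagggggc
Trbd2, chr6:41542163-41542176: gggactgggggggc
The 6 bases before the cysteine codon matched a stretch of one of these in 247 of the 1038 TRBC junction members (23.8%), and the 6 bases after it in 90 (8.67%). How often other TRBC clonotypes match in this way was not counted. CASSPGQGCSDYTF, printed above, is an example in which bases that match Trbd1 lead into the codon.

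At residues fixed by J, the cysteine codon was mostly 1 base away from the codon usual at that place, in 87.0% of the TRAC and 86.9% of the TRBC members of this kind. In TRBC, 385 of 452 (85.2%) replaced a tyrosine through an A-to-G change. In TRAC, 124 of 276 (44.9%) replaced a tyrosine through A-to-G, 63 (22.8%) a serine through A-to-T and 43 (15.6%) a glycine through G-to-T. At the tyrosine before the last residue, encoded by 7 of the TRBJ segments and read in 608799 clonotypes, cysteine stood in 362 (0.0595%), histidine in 268 (0.0440%), aspartate in 123, asparagine in 85, phenylalanine in 34 and serine in 29. Each of these residues lies 1 base from a tyrosine codon, so cysteine was the most frequent but not the only replacement.

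A pair from the control IgG tumor shows the pattern at its clearest. The first sequence had 6 UMIs, and the second, which differs in the base in capitals that gives tyrosine, had 11032 UMIs in the same library with the same V and J segments, 1839 times as many.
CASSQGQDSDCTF: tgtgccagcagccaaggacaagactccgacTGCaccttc
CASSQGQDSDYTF: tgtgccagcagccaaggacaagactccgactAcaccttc
In TRAC, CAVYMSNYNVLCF with 7 UMIs stood beside a sequence 1 base away with 1165 UMIs. At residues fixed by V in TRBC, serine was replaced through A-to-T in 114 members and through C-to-G in 53, while 127 members differed by more than 1 base, and 57.2% were 1 base away.

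Outside 2 tumors, the share of clonotypes with an internal cysteine varied little across libraries in TRAC and more in TRBC. In TRAC it was 0.475% (95% Wilson interval 0.355 to 0.635), 0.230%, 0.741% (0.469 to 1.17) and 0.243% in the tumors given control IgG, then IL-10-Fc, αCSF1R and BF10, and 0.211% to 0.249% in the 8 spleen and tdLN libraries. In TRBC the tumors had 0.592% (0.456 to 0.767), 0.199%, 1.24% (0.877 to 1.76) and 0.171% in the same order, against 0.167% to 0.278% in the spleen and tdLN. The lowest of the latter was the IL-10-Fc spleen (0.143 to 0.194) and the highest the IL-10-Fc tdLN (0.248 to 0.311). These intervals cover counting error only. The control IgG and αCSF1R tumors were highest in both chains, and the IL-10-Fc and BF10 tumors lay within the range of the other tissues. These 2 tumors with high shares also listed the fewest clonotypes, 9468 and 2430 in TRAC (45 and 18 members), against 38233 to 63371 elsewhere. In TRBC they listed 9466 and 2493 (56 and 31 members), against 54779 to 151480. Per 10000 UMIs they held 5.63 and 7.61 TRAC members, against 8.00 to 14.7 elsewhere. In TRBC they held 5.38 and 9.46, against 7.82 to 17.1.

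Counted by UMIs, the tumors did not stand apart in this way. TRAC members carried 0.151%, 0.159%, 0.254% and 0.189% of the UMIs in the tumors given control IgG, then IL-10-Fc, αCSF1R and BF10, 0.162% to 0.203% in the spleen and 0.173% to 0.197% in the tdLN. TRBC members carried 0.157%, 0.149%, 0.201% and 0.141% in the tumors, 0.147% to 0.182% in the spleen and 0.149% to 0.237% in the tdLN. The tissues therefore overlapped in both chains.

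**Figure D2:**
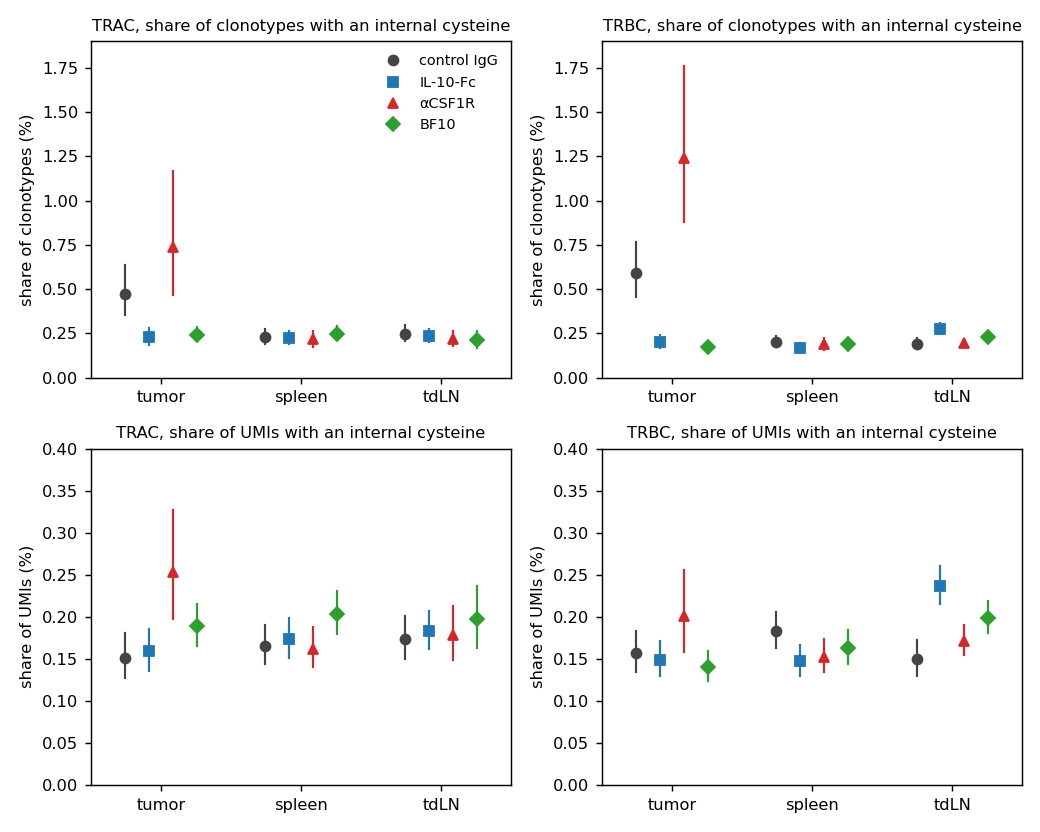
Percent of clonotypes and percent of UMIs with an internal cysteine on the y axes, for each of the 12 libraries by tissue on the x axis, with 95% Wilson intervals (counting error only). The control IgG and αCSF1R tumors lie above the other libraries by clonotypes but not, as a pair, by UMIs.

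The 3 tissues were compared by an exact permutation of the tissue labels within treatments, adjusted over 4 shares. The statistic was the sum of squared deviations of the tissue means, so its p (smallest possible 0.00463) asks whether the tissues differ in any way. The difference between the tumor and the mean of spleen and tdLN is given beside it as a size, which was not tested by itself. By clonotypes, TRAC averaged 0.422% ± 0.240 in the tumor, 0.229% ± 0.0139 in the spleen and 0.228% ± 0.0173 in the tdLN (SD, n = 4 libraries), with the tumor 0.194 percentage points above the rest (over the 3 tissues, exact permutation p = 0.148, adjusted p = 0.472). TRBC averaged 0.551% ± 0.4999, 0.187% ± 0.0145 and 0.223% ± 0.0405, with the tumor 0.346 points above (exact permutation p = 0.236, adjusted p = 0.472). By UMIs the differences were 0.00888 points in TRAC (exact permutation p = 0.972, adjusted p = 0.972) and -0.0133 points in TRBC (exact permutation p = 0.458, adjusted p = 0.611). None of the 4 shares passed. With the IL-10-Fc and BF10 libraries alone the difference by clonotypes was 0.0072 points in TRAC and -0.0323 points in TRBC.

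The 2 tumors with high shares were also those in which members lay next to a large clone. Members 1 base from a clonotype with the same V and J and at least 10 times the UMIs made up 22.2% (10 members) of TRAC and 28.6% (16) of TRBC members in the control IgG tumor, and 33.3% (6) and 48.4% (15) in the αCSF1R tumor. In the other libraries they made up at most 4.32% in TRAC and 2.01% in TRBC. Among clonotypes without an internal cysteine the same measure was 5.20% and 11.2% in TRAC and 7.47% and 14.5% in TRBC for these 2 tumors, and at most 1.15% and 0.313% elsewhere. After such pairs were merged, the member shares of the control IgG and αCSF1R tumors were 0.390% and 0.557% in TRAC and 0.457% and 0.754% in TRBC. The part of sequencing or amplification errors in these shares was not tested.

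Members were smaller clones than the other clonotypes in every library. The mean number of UMIs per clonotype was lower in members in 12 of 12 libraries of each chain, with ratios of 0.317 to 0.933 in TRAC and 0.160 to 0.909 in TRBC. The mean log2 ratio was -0.58 ± 0.49 in TRAC and -0.59 ± 0.81 in TRBC (SD, 12 libraries), which is 0.670 and 0.663 on the linear scale. Without the control IgG and αCSF1R tumors the means were -0.37 in TRAC and -0.25 in TRBC, over the remaining 10 libraries (exact sign-flip permutation test, adjusted p = 0.00195). Over all 12 libraries the exact sign-flip permutation test (two-sided) gave p = 0.000488 in each chain, the smallest it can give, and an adjusted p of 0.000488 over the 2 chains. Libraries that share a tissue or treatment are not full replicates, and flips over the 4 treatments alone cannot reach the threshold of 0.05.

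The difference also showed at the lowest count. Of the TRAC members, 61.2% had 1 UMI against 48.4% of the others, and of the TRBC members 69.4% against 59.1%. Across the 20 amino acids, mean UMIs of clonotypes that hold a residue over those that do not ranged from 0.922 to 1.22 in TRAC and from 0.932 to 1.07 in TRBC for the 19 residues other than cysteine, which had 0.747 and 0.805. Cysteine thus had the lowest ratio in both chains; these ratios pool all libraries and were not tested.

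**Figure D3:**
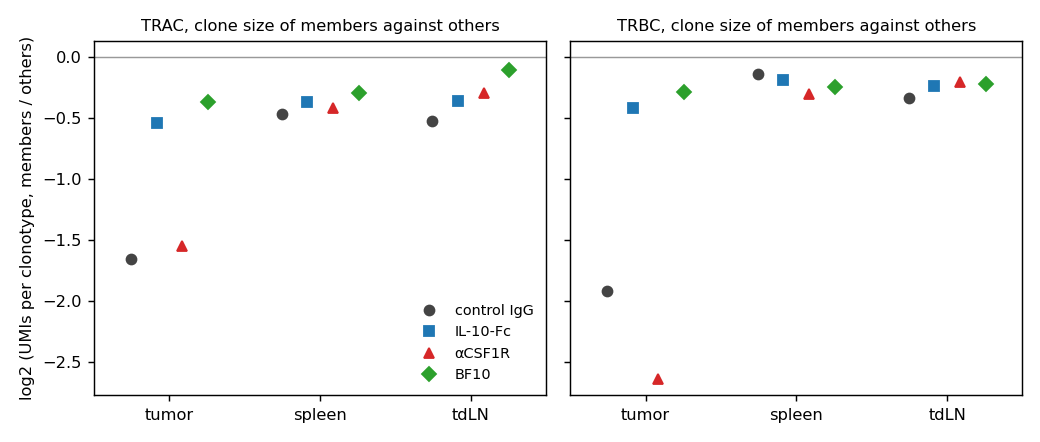
The log2 ratio of mean UMIs per clonotype, members over other clonotypes, on the y axis by tissue on the x axis, each point 1 library. All 12 points of each chain lie below 0, and the control IgG and αCSF1R tumors lie lowest.

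When the members were divided by the place of the cysteine, the UMI share of junction cysteines in TRBC was lower in every tumor library than in any spleen or tdLN library. This division was added after the values were seen. Junction cysteines carried 0.0423%, 0.0630%, 0.0275% and 0.0554% of the UMIs in the tumors given control IgG, then IL-10-Fc, αCSF1R and BF10. In the spleen the values were 0.0847%, 0.0743%, 0.0789% and 0.0698%, and in the tdLN 0.0900%, 0.145%, 0.0945% and 0.131%, in the same order. The tumor was lowest and the tdLN highest in 4 of 4 treatments, and the αCSF1R tumor value rests on 9 UMIs. The means were 0.0470% ± 0.0156, 0.0769% ± 0.00638 and 0.115% ± 0.0271 (SD, n = 4 libraries), and the difference of the tumor from the rest was -0.0490 points. Over the 3 tissues the exact permutation test gave p = 0.00463, the smallest possible, and an adjusted p of 0.0185 over 4 shares. Over all 28 share tests of 7 rules the adjusted p of the exact permutation test was 0.0648, which does not pass. Without the 10 largest clonotypes of each library the difference was -0.0413 points and with 1-base pairs merged -0.0511 (both adjusted p = 0.0185 over 4 shares, exact permutation test over the 3 tissues). With the IL-10-Fc and BF10 libraries alone it was -0.0458 (exact permutation, adjusted p = 0.222, where 2 treatments cannot go below 0.167).

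By clonotypes, the same TRBC members did not show this order. They made up 0.137%, 0.0730%, 0.321% and 0.0753% of the tumor clonotypes in the order above, 0.0775% to 0.0878% in the spleen and 0.107% to 0.159% in the tdLN. The means were 0.152%, 0.0828% and 0.131%, with the tumor 0.0445 points above the rest (exact permutation test over the 3 tissues, p = 0.486, adjusted p = 0.648).

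Cysteines at residues fixed by J had their highest mean share of TRAC clonotypes in the tumor. They made up 0.243%, 0.0628%, 0.370% and 0.0599% of the tumor clonotypes in the order above, 0.0466% to 0.0604% in the spleen and 0.0257% to 0.0487% in the tdLN. The means were 0.184%, 0.0538% and 0.0379%, with the tumor 0.138 points above the rest (exact permutation test over the 3 tissues, p = 0.00926, adjusted p = 0.037 over 4 shares and 0.0864 over all 28). The control IgG and αCSF1R tumors were highest, and the IL-10-Fc and BF10 tumors lay next to the spleen.

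At junction residues of TRAC the share of UMIs was 0.0951%, 0.115%, 0.199% and 0.153% in the tumors, 0.122% to 0.155% in the spleen and 0.135% to 0.1699% in the tdLN. The tissues overlapped, with a difference of -0.0014 points (exact permutation test, adjusted p = 0.824). In the tdLN, the TRBC shares of IL-10-Fc (95% Wilson interval 0.128 to 0.163) and BF10 (0.117 to 0.148) lay above those of control IgG (0.0748 to 0.108) and αCSF1R (0.0822 to 0.109). The intervals of the first pair did not overlap those of the other pair, but with 1 pooled library each this compares libraries and not treatments.

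**Figure D4:**
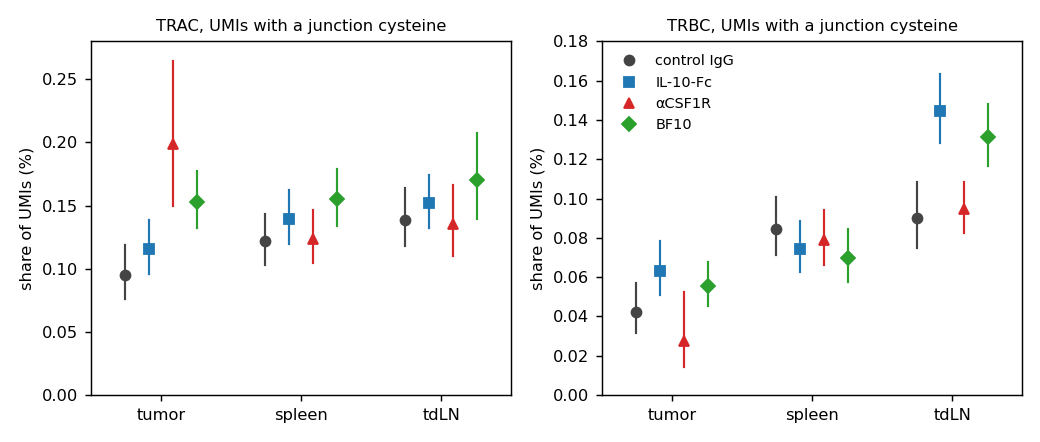
Percent of UMIs of each library in clonotypes with a cysteine at a junction residue (y axis) by tissue (x axis), with 95% Wilson intervals. In TRBC the 4 tumors lie at 0.0275% to 0.0630%, below all 8 spleen and tdLN libraries.

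The segments that members used were compared with those of the other clonotypes in each library, for segments with at least 1% of the clonotypes, as the mean log2 ratio over 12 libraries (exact sign-flip permutation test, adjusted over the segments of a chain). As for clone size, libraries that share a tissue or treatment are not full replicates, so the p-values of V and J use may be too small. Of 35 TRAJ segments, 8 passed (22.9%), 6 used more often by members (17.1%) and 2 less often (5.71%). In this exact permutation test Traj9 (1.11, adjusted p = 0.0171), Traj43 (1.10, adjusted p = 0.0239) and Traj32 (0.94, adjusted p = 0.0214) were highest, and Traj16, Traj30 and Traj31 also rose, by 0.60 to 0.77. The pseudocount of 0.5 gives a rare segment without members a positive ratio in libraries with few members, such as the αCSF1R tumor (18 TRAC members). Rare segments are therefore less sure, among them Traj16 with 21 members of 5737 clonotypes (0.366%). Traj57, with 0.238% members as in the whole chain, had 0.33 (exact test, adjusted p = 0.382). By the same exact test Traj37 (-1.04, adjusted p = 0.0171) and Traj23 (-0.69, adjusted p = 0.0406) fell, and Traj26 did not pass with -0.71 (adjusted p = 0.0615).

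The germline starts of the 2 leading J segments show a base pair that many members keep. The capitals mark 2 germline bases, GC, that match the end of the cysteine codon, in which a T stands before them (GRCm38, plus strand). Whether that T came from the joining or from a change of 1 base was not tested.
Traj9, chr14:54209393-54209450: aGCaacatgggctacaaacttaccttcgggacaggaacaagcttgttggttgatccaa
Traj43, chr14:54174742-54174798: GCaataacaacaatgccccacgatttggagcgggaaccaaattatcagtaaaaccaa
Of the junction members with Traj9, 52 of 67 (77.6%) took the last 2 bases of the cysteine codon from the germline J, and so did 43 of 53 (81.1%) with Traj43 and 11 of 15 (73.3%) with Traj53. These 3 segments held all 106 TRAC junction members of this kind (11.8% of 897). A further 317 (35.3%) took 1 base from J and 474 took none, and no member had a whole germline cysteine codon. An in-frame germline codon ending in GC or GT was present in 5 of the 6 TRAJ segments used more often, in 1 of the 2 used less often and in 23 of all 35, so its presence did not by itself set these segments apart.

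In TRBC, 4 of 12 J segments passed (33.3%), 2 more often (16.7%) and 2 less often (16.7%). Trbj2-2 was used more by members in 12 of 12 libraries (0.77, adjusted p = 0.00293, exact sign-flip permutation test), and Trbj2-7 was also used more (0.33, adjusted p = 0.00439). By the exact test Trbj1-1 (-0.76, adjusted p = 0.00439) and Trbj1-4 (-0.61, adjusted p = 0.00293) were used less. Trbj1-3 with 0.33 and Trbj1-5 with -0.53 did not pass (both adjusted p = 0.171, exact test). The Trbj2-2 members were mostly not junctional: 119 of 184 had the cysteine at a residue fixed by J and 37 at a junction residue. With junction members alone, Trbj2-2 went to the other side (-0.52, adjusted p = 0.0902, exact test). The germline of Trbj2-2 and a member of the IL-10-Fc tumor with 5 UMIs show the place, in which the germline tyrosine codon tac stands where the member has a cysteine codon.
Trbj2-2, chr6:41542957-41543007: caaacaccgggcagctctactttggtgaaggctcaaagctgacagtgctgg
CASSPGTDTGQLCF: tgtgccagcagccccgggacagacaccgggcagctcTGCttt
For Trbj2-7, by contrast, 297 of 524 members were junctional.

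Codons that kept 2 germline J bases were found in 139 of the TRBC junction members (13.4%), all of them with Trbj2-3 (77 of 120, 64.2%) or Trbj2-4 (62 of 100, 62.0%). Both segments begin with the same 3 letters, of which the capitals GT end the codon.
Trbj2-3, chr6:41543223-41543271: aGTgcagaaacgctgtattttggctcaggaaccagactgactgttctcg
Trbj2-4, chr6:41543362-41543410: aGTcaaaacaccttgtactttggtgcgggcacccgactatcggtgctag
Of the rest, 399 (38.4%) kept 1 base and 500 kept none. Trbj2-3 and Trbj2-4 were the only 2 of the 12 TRBJ segments with such an in-frame codon, and neither passed the test of use.

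**Figure D5:**
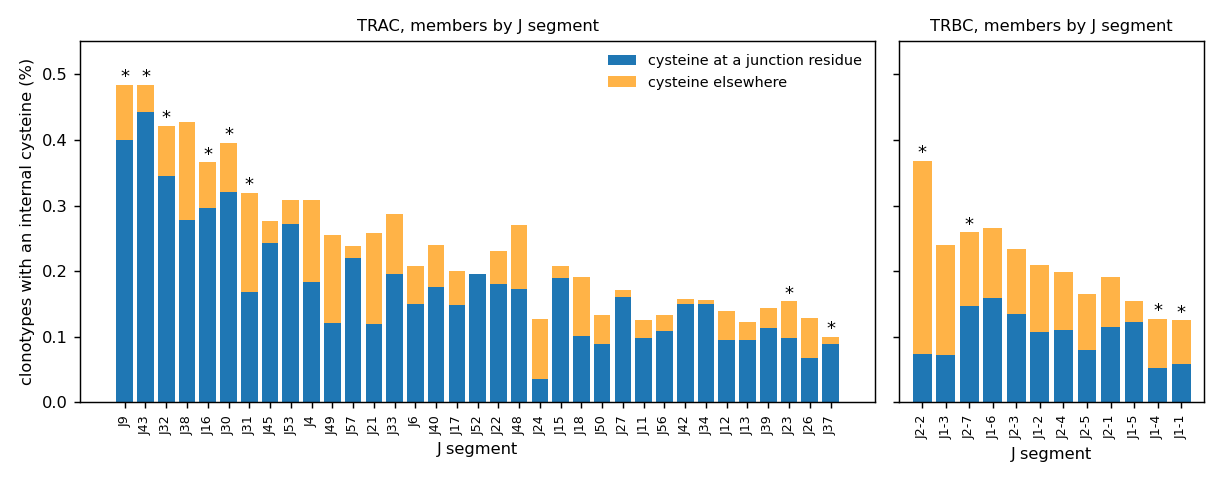
Percent of the clonotypes of each J segment that hold an internal cysteine (y axis), split by whether the cysteine stands at a junction residue, with J segments on the x axis in the order of their log2 ratio and asterisks at adjusted p below 0.05. Traj9 and Traj43 lead in TRAC mostly through junction cysteines, and Trbj2-2 leads in TRBC mostly through cysteines elsewhere.

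V use was tested in the same way. Of 13 TRAV families, 3 passed (23.1%), 2 more often in members (15.4%) and 1 less often (7.69%). These were Trav13 (0.53, adjusted p = 0.0254), Trav7 (0.29, adjusted p = 0.0444) and Trav14 (-0.42, adjusted p = 0.0465, exact sign-flip permutation tests). Of the other families named by their rank, Trav4 had 0.35 (adjusted p = 0.374), Trav8 0.30 (adjusted p = 0.0873), Trav16 -0.59 (adjusted p = 0.219) and Trav3 -0.30 (adjusted p = 0.363) in the exact test. Leaving out any 1 treatment left 9 libraries, with which no TRAV family and no TRAJ segment passed. With so few libraries, a TRAV family or TRAJ segment that alone reached the smallest exact p could not pass after adjustment. This setting therefore cannot show whether their use was stable.

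Of 19 TRBV segments, 4 passed (21.1%), 1 more often (5.26%) and 3 less often (15.8%). Trbv12-1 was higher in 12 of 12 libraries (0.45, adjusted p = 0.0093), and Trbv14 (-0.60, adjusted p = 0.0216), Trbv13-2 (-0.59, adjusted p = 0.0216) and Trbv1 (-0.56, adjusted p = 0.0255) were lower (exact sign-flip permutation tests). Trbv12-2 had 0.53 (adjusted p = 0.0538), Trbv31 0.50 (adjusted p = 0.262), Trbv2 -0.68 and Trbv13-1 -0.60 (both adjusted p = 0.140) in the exact test. Many Trbv12 members had the cysteine at a residue fixed by V, 59 of 113 for Trbv12-1 and 60 of 141 for Trbv12-2, and with junction members alone Trbv12-1 had -0.076 (adjusted p = 0.786, exact test). Without the control IgG and αCSF1R tumors, 9 TRBV segments passed.

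Members were shared between libraries less often than other CDR3s. Of 998 TRAC member amino acid sequences, 83 (8.32%) were listed in at least 2 libraries and 6 in at least 6, whereas among the others 34.1% were in at least 2 and 8.03% in at least 6. Of 1992 TRBC member sequences, 31 (1.56%) were in at least 2 libraries and 0 in at least 6, against 23.0% and 3.22% of the others. Members also had fewer UMIs per clonotype, which lowers the chance to be listed again, and the part of that in sharing was not tested.

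The most shared member, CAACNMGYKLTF, was listed in 11 of 12 libraries, with 33 UMIs in 15 clonotypes and 4 nucleotide sequences, all with Traj9. Of these 15 clonotypes, 5 were 1 base from a larger clonotype. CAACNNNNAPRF and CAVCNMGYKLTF followed with 7 libraries each, and the Traj30 member printed above and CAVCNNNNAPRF with 6 each. These 5 use Traj9, Traj43 or Traj30, which all rose among members, and each has the cysteine at residue 4. The most shared TRBC member, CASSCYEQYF, was listed in 5 libraries, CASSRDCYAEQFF in 3, and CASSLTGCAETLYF, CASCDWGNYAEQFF and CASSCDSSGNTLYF in 2 each.

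Large members were counted next. At least 10 UMIs were reached by 3 TRAC and 7 TRBC members. The TRBC count includes long members of the control IgG tumor with 18, 15 and 10 UMIs. The largest TRAC member was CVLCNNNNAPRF of the αCSF1R tumor with 27 UMIs, 0.114% of the library (95% Wilson interval 0.0785 to 0.166) and rank 69 in its chain. It was the only member of up to 25 residues with at least 0.1% of the UMIs of its library, which is 1 of 1192 in TRAC (0.0839%) and 0 of 1794 in TRBC. Of the other clonotypes, 207 of 508484 in TRAC (0.0407%) and 185 of 966706 in TRBC (0.0191%) reached this level. The largest TRAC member of the control IgG tumor, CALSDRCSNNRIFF, had 13 UMIs, and the largest of the other 10 TRAC libraries had 4 to 6. All of these were junctional except 1 of the tdLN.

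In TRBC, the largest member of up to 25 residues was in the αCSF1R spleen, with 21 UMIs and 22 residues. Its J end is repeated, as its sequence shows: the first 19 bases of Trbj1-2 are present in 2 copies, and the cysteine codon overlaps the start of the first copy.
αCSF1R spleen, 21 UMIs: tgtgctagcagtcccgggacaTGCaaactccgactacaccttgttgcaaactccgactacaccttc
The first 15 bases of the own J segment were present in 2 copies in 8 members in all. The largest of the control IgG spleen had 12 UMIs and those of the αCSF1R and IL-10-Fc tumors 8 each, and the cysteine of the first 2 of these stands at residue 4, where V fixes a serine in most clonotypes.
Control IgG spleen, 12 UMIs: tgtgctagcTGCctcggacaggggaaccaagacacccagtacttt
αCSF1R tumor, 8 UMIs: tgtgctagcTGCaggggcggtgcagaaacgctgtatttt
The remaining libraries had 3 to 6 UMIs in their largest TRBC member, apart from the control IgG tumor, whose largest member had 18 UMIs and was long.

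The long members were mostly of a single kind. Of 249 long TRBC members, 159 matched Trbv17 on the plus strand (gene at chr6:41163062-41163556, its exon 2 at 41163262 to 41163556) over a median of 288 bases, the longest over 293. They had a median length of 112 residues and 278 UMIs in 11 libraries, 64 of them in the control IgG tumor, and 156 of the 159 carried the V call V2V18. Among the 159, 153 began with the same 60 bases, which are shown because they mark the group.
Start of 153 long members: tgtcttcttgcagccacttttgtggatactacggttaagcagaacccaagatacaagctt
Clonotypes of up to 25 residues assigned to Trbv17 numbered 38060. In 237 of the 249 long TRBC members and 23 of 23 in TRAC, the last cysteine lay 10 to 20 residues before the end, the distance of an ordinary CDR3. A CDR3 called from an earlier cysteine of the V segment was not tested as the source. The long members entered the shares of all members, but not those of junction, V or J residues, amino acids, positions or large clones.

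A feature of the beta chain that concerns other CDR3s, hydrophobic residues at both residue 6 and residue 7, was found in 24 of 1794 TRBC members of up to 25 residues (1.34%) and in 11353 of 966706 others (1.17%).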

How the data were processed

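The authors sequenced T cell receptor transcripts with the QIAseq mouse TCR RNA kit, and the kit's analysis portal assigned V, J and CDR3 to each UMI. The deposited tables hold, for each clonotype, the counts of UMIs, which are not normalized, and the fraction of the chain total that the authors computed from them for each clonotype, which was not used for a test. The germline reference of the portal is not given in the sources used here, and the submitters' processing notes name mm10. Counts based on at least 3 reads per UMI were used, with at least 7 reads as an alternative, and all clonotypes of TRAC and TRBC entered. V names that join several segments were reduced to a family in TRAC. CDR3s were read with Python 3.11.15, numpy 2.4.6, pandas 2.3.3 and scipy 1.17.1, and figures drawn with matplotlib 3.10.9. J and D segments were read from the GENCODE annotation of GRCm38.

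Shares by tissue were tested by an exact permutation of tissue labels within treatments over the 3 tissue means, and clone size and segment use by exact sign flips over libraries, with Benjamini-Hochberg adjustment and a threshold of 0.05. Segment ratios used a pseudocount of 0.5. The tests were checked on simulated data. The largest member of each library is given in the text by its sequence or only by its UMIs. Named are the 5 most shared members per chain and the 3 highest and 3 lowest segments. Other members were chosen after their values were seen. The members, the rule and the lists were chosen with earlier results of these data known. PCR reads behind UMIs are not independent, so Wilson intervals cover counting error only. Every library pools 3 mice, so the spread between libraries holds no separate measure of the spread between animals.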

Additional observations from a re-analysis of the deposited data

Results flagged for a closer look

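The clone size ratio of members differed between tissues over all 12 libraries. In TRAC the mean log2 ratio of UMIs per clonotype, members over others, was -1.03 in the tumor, -0.39 in the spleen and -0.32 in the tdLN (4 libraries each, exact permutation of tissue labels within treatments, p = 0.0139, adjusted p = 0.0278). In TRBC it was -1.32, -0.22 and -0.25 (exact permutation p = 0.0278, adjusted p = 0.0278). Each p asks whether the 3 tissues differ in any way. The low tumor means rest on the control IgG and αCSF1R tumors, with -1.66 and -1.55 in TRAC and -1.92 and -2.64 in TRBC. The IL-10-Fc and BF10 tumors had -0.54 and -0.37 in TRAC and -0.42 and -0.28 in TRBC, against -0.53 to -0.10 and -0.34 to -0.14 in the spleen and tdLN libraries. In the control IgG and αCSF1R tumors, members 1 base from a much larger clonotype were also most frequent. Their part in the difference was not tested.

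Gamma and delta chain transcripts, which enter no comparison above, held an internal cysteine more often by the same rule. Of 13809 TRDC clonotypes, 271 held one (1.96%, 95% Wilson interval 1.74 to 2.21), with 1.31% of the UMIs and at most 7 UMIs in a clonotype. Of 10038 TRGC clonotypes, 423 held one (4.21%, 3.84 to 4.62), with 2.14% of the UMIs. The largest was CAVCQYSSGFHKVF in the control IgG tumor with 67 UMIs. Germline cysteines in these chains were not sought.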

How the results depend on the processing

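No paired analysis was possible because no replicate numbers are shared, as each treatment and tissue has 1 library; treatment served as the block of the tissue tests instead. Of the 120 values of tested results under the other settings first listed, 87 were counted as unchanged. For shares and clone sizes this meant the same direction and side of the threshold. For segment use it meant only a similar number of passing segments, whichever segments these were. Clone size was lower in members under all alternatives run, at -0.37 and -0.25 without the control IgG and αCSF1R tumors, with log2 ratios of -0.69 to -0.48 (TRAC) and -0.71 to -0.44 (TRBC) when 1 treatment was left out; with flips over treatments the values were -0.58 and -0.59 which missed the threshold at the smallest exact p that 4 treatments allow. The following limits apply to the rest, and the cause of each change was not tested.

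The TRBC UMI share passed over 4 shares (adjusted p = 0.0185, exact permutation over the 3 tissues) for cysteines within 2 residues of the centre (-0.0387), and, in settings chosen after seeing the data, at junction residues (-0.0490), also with 1-base pairs merged (-0.0511) or without the 10 largest clonotypes (-0.0413). Over all 28 tests the centre and junction shares did not pass (both adjusted p = 0.0648, exact permutation). The difference was 0.0279 without the 10 largest clonotypes under the original rule. The TRAC UMI difference turned to -0.0205 with 7 reads per UMI, -0.0034 with pairs merged, -0.0071 for cysteines at least 5 residues from either end, -0.0014 at junction residues, -0.0068 at junction residues with pairs merged, and, with IL-10-Fc and BF10 only, -0.0152 and at junction residues -0.0198. With those 2 treatments the TRBC clonotype difference was -0.0323, at junction residues -0.0428, and the TRAC clonotype difference at junction residues was -0.0107. Leaving out 1 treatment gave 0.0836 to 0.258 and 0.111 to 0.475 by TRAC and TRBC clonotypes, and -0.0161 to 0.0183 and -0.0308 to -0.0035 by UMIs. The value -0.0161 came without αCSF1R.

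Counts of segments that passed moved most. For TRAV families, 1 passed with at least 2 UMIs, with pairs merged or with at most 25 residues. With 7 reads, at least 5 residues from either end, UMIs in place of clonotypes, junction residues (merged or not) or without the control IgG and αCSF1R tumors 0 passed, against 9 with no minimum share. For TRBV, 1 passed with at least 2 UMIs, 7 reads or merged junction residues, 2 near the centre or at junction residues, 0 away from the ends, 13 with no minimum share and 9 without these tumors. For TRAJ, 5 passed without these tumors. For TRBJ, 1 passed with at least 2 UMIs, 0 near the centre or away from the ends, and 2 at junction residues, merged or not. Leaving out 1 treatment gave 0 to 0 for TRAV and TRAJ, 0 to 3 for TRBV and 4 to 5 for TRBJ. With the libraries then left, a TRAV, TRAJ or TRBV segment that alone reached the smallest exact p could not pass after adjustment.

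Of 360 values of named segments under the settings first listed, leaving out 1 treatment included, 226 were unchanged and 110 no longer passed. A further 8 passed only there and 16 changed sign. Of 120 values under settings chosen later, 74 were unchanged and 30 no longer passed, 8 passed only there and 8 changed sign. Segments that lost the threshold are not listed one by one. The changes of sign were as follows. Away from the ends: Traj26 0.13, Trav16 0.28, Trav7 -0.014, Trav8 -0.29, Trbj1-5 0.36, Trbj2-2 -0.26, Trbj2-7 -0.30, Trbv12-1 -0.25 and Trbv12-2 -0.12. Near the centre: Traj23 0.077, Traj26 0.36, Trav7 -0.12, Trbj1-3 -0.020, Trbj1-5 0.54, Trbj2-2 -0.37 and Trbv12-1 -0.058. At junction residues: Trbj1-3 -0.13, Trbj1-5 0.40, Trbj2-2 -0.52 and Trbv12-1 -0.076. With pairs merged as well: Trbj1-3 -0.064, Trbj1-5 0.34, Trbj2-2 -0.45 and Trbv12-1 -0.0029.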
